A study of Mus musculus with 4 samples.

Results

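Mutant-only regions are stretches of accessible chromatin that held a peak in both mutant libraries and in neither control library, after each of the 4 ATAC-seq peak lists had been cut to the same number of peaks. From each list the 22959 peaks with the highest deposited score on chromosomes 1 to 19 and X were kept, and peaks that shared at least 1 bp were merged into 29724 regions. Of these, 711 were mutant-only (2.39%) and 638 control-only (2.15%), while 17201 held a kept peak in all 4 libraries. The members were chosen on the presence of calls, so their number and the strength of their peaks are given as a description, without a test. The libraries came from GFP-positive mesenchymal cells sorted from the palate at E14.5, and per the labels 50000 cells were pooled for each group. The 2 control libraries were Shox2Cre/+;Nkx2.5F/F;R26RmTmG and the 2 mutant libraries Shox2Cre/-;Nkx2.5F/F;R26RmTmG. Controls thus carried 1 intact Shox2 allele and mutants none. Both groups carried floxed Nkx2-5 on both chromosomes, in cells where Cre was driven from Shox2, so the controls were not wild type. Nothing in the labels ties the 2 libraries of a genotype to separate embryos, so the spread between them may be technical.

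ATAC-seq finds DNA that a transposase can reach, which in most cells means active gene starts and distal regulatory elements such as enhancers. Gene starts tend to be open in many cell types, whereas distal elements differ more between cell types and states. Shox2 encodes a homeobox protein active in the front of the palate, and homeobox proteins bind short AT-rich DNA words such as TAATTA. A region called only in mutants may be newly open, more open, or only ranked differently, and a peak list without read counts does not separate these.

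Most mutant-only regions lay away from gene ends, but 57 contained a gene start listed in the RefSeq promoter table (GRCm38.p6). The bases just before 6 of these starts are shown because they are where the calls meet a named gene. Prrx1, Dkk2, Tnn and Lrrc4c belong to gene lists used below. Mst1r was among the strongest members at gene ends, whereas Gja4 was not and is shown as a further example. Each run gives the 250 bases before the start, 5′ to 3′ on the gene's strand. Capitals mark 4 words searched on both strands. They are the homeobox word TAATTA, the TATA box word TATAAA with its reverse complement TTTATA, the CCAAT box word CCAAT with its reverse complement ATTGG, and the GC box word GGGCGG with its reverse complement CCGCCC. In Dkk2 neighbouring words join into 1 capital run.
Prrx1: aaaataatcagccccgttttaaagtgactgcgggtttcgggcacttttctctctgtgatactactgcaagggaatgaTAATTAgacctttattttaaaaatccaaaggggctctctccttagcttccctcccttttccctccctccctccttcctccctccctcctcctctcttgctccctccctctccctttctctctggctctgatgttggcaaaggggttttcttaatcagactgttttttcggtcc
Dkk2: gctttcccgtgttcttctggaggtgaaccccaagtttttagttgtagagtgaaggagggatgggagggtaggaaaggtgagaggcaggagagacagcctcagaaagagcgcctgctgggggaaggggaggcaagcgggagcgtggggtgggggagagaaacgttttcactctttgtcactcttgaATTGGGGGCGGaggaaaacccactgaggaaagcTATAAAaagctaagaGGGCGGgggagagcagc
Tnn: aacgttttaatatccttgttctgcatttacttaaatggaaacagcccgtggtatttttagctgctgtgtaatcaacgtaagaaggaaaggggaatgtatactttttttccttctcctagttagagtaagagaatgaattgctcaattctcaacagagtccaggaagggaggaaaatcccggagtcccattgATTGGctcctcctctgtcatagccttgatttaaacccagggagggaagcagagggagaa
Lrrc4c: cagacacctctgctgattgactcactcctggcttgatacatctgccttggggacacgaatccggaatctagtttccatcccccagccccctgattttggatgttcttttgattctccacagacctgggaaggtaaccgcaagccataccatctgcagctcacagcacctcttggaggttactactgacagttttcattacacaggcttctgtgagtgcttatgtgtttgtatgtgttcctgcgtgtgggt
Mst1r: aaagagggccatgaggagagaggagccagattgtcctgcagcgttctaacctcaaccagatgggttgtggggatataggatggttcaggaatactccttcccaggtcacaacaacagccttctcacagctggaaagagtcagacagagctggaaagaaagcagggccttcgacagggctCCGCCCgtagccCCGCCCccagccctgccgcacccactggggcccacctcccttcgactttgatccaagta
Gja4: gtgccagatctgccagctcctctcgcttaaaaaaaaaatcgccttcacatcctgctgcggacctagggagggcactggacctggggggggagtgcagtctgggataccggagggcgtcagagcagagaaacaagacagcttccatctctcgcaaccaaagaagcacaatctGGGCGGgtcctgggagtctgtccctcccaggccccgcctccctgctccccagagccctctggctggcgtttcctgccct

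In mm10 these windows are chr1:163313651-163313900 (minus strand) for Prrx1, chr3:132085042-132085291 (plus) for Dkk2 and chr1:160153576-160153825 (minus) for Tnn. They are chr2:96317919-96318168 (plus) for Lrrc4c, chr9:107906639-107906888 (plus) for Mst1r and chr4:127314040-127314289 (minus) for Gja4. The start used for Prrx1 lies inside the gene as annotated (163245119 to 163315145), and so does its whole window. GC content was 47.6% for Prrx1, 42.0% for Tnn and 49.6% for Lrrc4c, and it was 55.6% for Dkk2, 57.6% for Mst1r and 61.2% for Gja4. The Prrx1 window held 1 TAATTA and no GGGCGG, whereas the Dkk2 and Mst1r windows held 2 GGGCGG each and no TAATTA. Positions of summits are counted from the start, negative before it. Both mutant summits lay close to the start at Gja4 (-26 and -12) and at Mst1r (-36 and -69), and after it at Prrx1 (147 and 174). They were far apart at Dkk2, at 629 in mutant 1 and -875 in mutant 2, the largest summit distance of all 711 regions (1504 bp). A call over a start can therefore stem from different parts of a wide peak.

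The promoter table used here has no entry for chromosome 18, and the 57 regions are 8.31% of the 686 on the other chromosomes, against 13.7% of control-only regions. Over all 63 promoter windows of 300 bases (250 before and 50 after a start) in mutant-only regions, 48 belonged to protein-coding genes and 15 to lncRNA genes. Their median GC content was 58.3% and they held a median of 12 CpG, against 62.7% and 23 in the 11935 windows in regions of all 4 libraries. The whole table of 32817 windows had 52.7% and 7. GGGCGG stood in 27 of the 63 (42.9%), against 69.4% of windows in regions of all 4 libraries and 35.6% of the table. TAATTA stood in 5 (7.94%), against 2.06% and 5.30%. It stood in as many windows, 5 of 80 (6.25%), of regions kept in control 1 and mutant 1, and in 0 to 1.98% of windows of the other classes of exactly 2 libraries. CCAAT stood in 19 (30.2%), against 39.0% and 37.4%, and TATAAA in 5 (7.94%), against 5.41% and 13.6%. Starts in mutant-only regions were thus poorer in CpG than starts open in every library. The other classes of regions kept in exactly 2 libraries, with 57 to 101 windows each, had median CpG counts of 13.5 to 18. Matches are a description of letters, and at these counts a few windows move each share.

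Peaks at mutant-only regions were of middle to low rank in both mutants. Ranks run from 1 for the highest score to 22959 for the last peak kept. In mutant 1 they ran from 7762 to 22957 with a median of 19598, and in mutant 2 from 9239 to 22942 with a median of 19563. The deposited fold enrichment, a value of the authors for single peaks over a background that the sources do not give, had a median of 6.04 in mutant 1 (2.95 to 10.6) and 6.43 in mutant 2 (2.91 to 13.1). All kept peaks of these libraries had medians of 7.15 and 7.56. In none of the 711 regions were both mutant peaks in the upper 50% of the kept ranks, and in 76 (10.7%) both were in the upper 75%. That number was 45 of the control-only regions (7.05%) and 25 to 40 (4.81% to 7.23%) in the 4 classes that joined a control and a mutant library. The rule bounds these ranks from below, so they are not evidence of strength. Just inside the limit were regions in Art3, Megf6 and Dhrs3, whose weaker mutant peaks ranked 22957, 22952 and 22951. Just outside were regions 24.3 kb from Map9 and inside Akap13 and Prdm16, at 22960, 22967 and 22970.

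**Figure D1:**
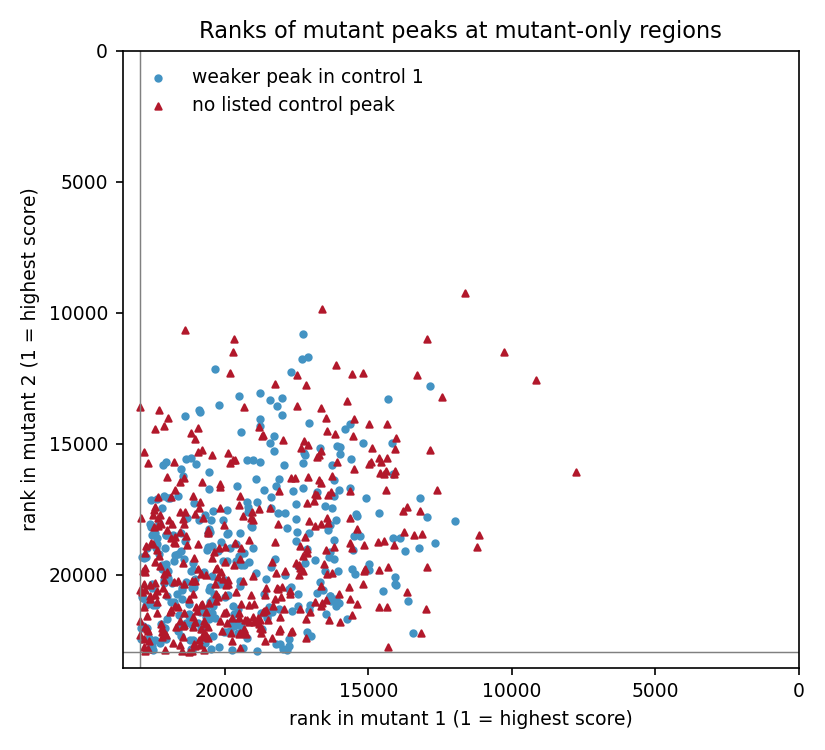
Rank of the mutant 1 peak (x axis) against rank of the mutant 2 peak (y axis) at each of the 711 mutant-only regions, both axes reversed so that stronger peaks lie up and right; grey lines mark the last rank kept, 22959. Triangles are the 384 regions without a listed control peak and circles the 327 with a weaker peak in control 1; both kinds fill the same low-ranked corner.

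The summits of both mutants lay close together. Their median distance was 47 bp (quartiles 17 and 93), and in 557 of the 711 regions (78.3%) it was 100 bp or less. Control-only regions had a median of 56.5 bp, with 72.1% within 100 bp, and the classes that joined a control and a mutant library ran from 42 to 68 bp. The smaller distances were those of classes without control 2. Regions were 480 to 2361 bp wide, with a median of 790 bp, against 1178 bp for regions in all 4 libraries.

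Weaker control peaks lay under 327 of the 711 regions (46.0%) when the full control lists were searched. All 327 were peaks of control 1, whose list goes on for 7266 peaks beyond the limit. Control 2 had 0, because all 22959 of its usable peaks had been kept, and its list could not hold a weaker one. The control 1 peaks ranked from 23007 to 29961, with a median of 25584, and 61 of them stood within 1000 ranks of the limit. By the rule, control 1 ranked each of these regions lower than the weaker mutant did, so the direction of the gap is not a result. The gap had a median of 5330 ranks (557 to 13112). Thus 182 regions had a gap of over 5000 ranks and 5 a gap under 1000.

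The remaining 384 regions (54.0%, exact 95% binomial interval 50.3% to 57.7%) had no listed peak in either control. The intervals here cover the count of regions only, not embryos. In control-only regions 178 of 638 (27.9%) had no listed mutant peak, but there both searched lists went on beyond the limit. In the 2 mixed classes that also lacked control 2, this share was 54.6% and 40.6%. The share of mutant-only regions thus lay within the range of the classes in which 1 of the absent libraries was control 2. No listed peak is not the same as no peak. The deposited peak names carry numbers that run up to 108634 in control 1 and 96525 in control 2, whose lists hold 30239 and 22966 peaks. Most numbers are thus missing from the lists. Between the listed peaks on either side, at least 1 number was missing for all 384 of these regions in control 1. The same held for all 711 mutant-only regions in control 2, and the median was 6 missing numbers in control 1 and 7 in control 2. Whether a missing one lay at a given region was not tested. Missing numbers were not counted at other places in the genome, so these counts are not shown to be particular to the members.

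**Figure D2:**
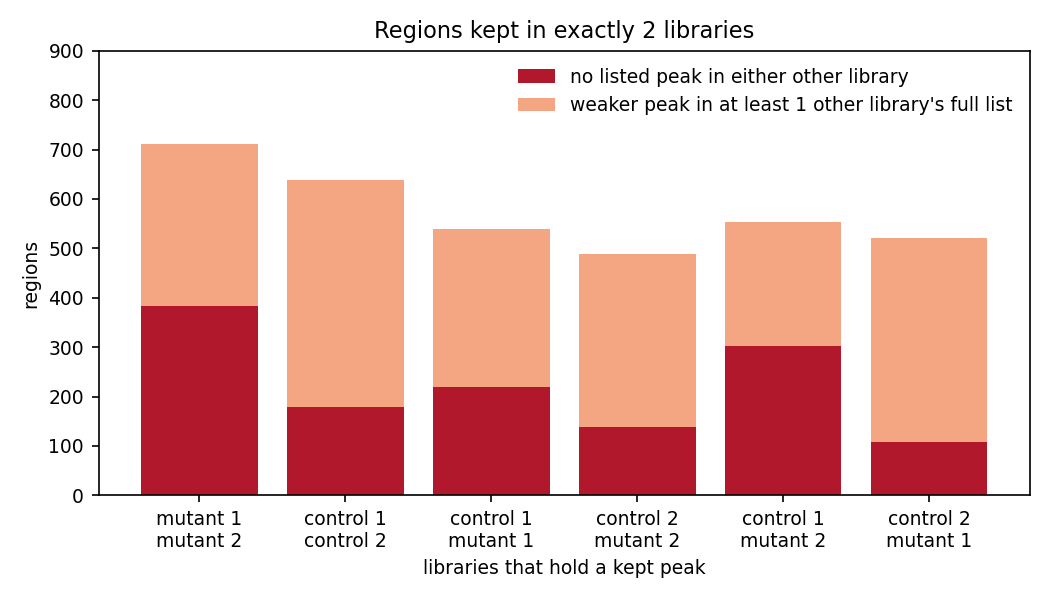
Number of regions (y axis) kept in exactly 2 libraries, for each pair of libraries (x axis); the dark part of a bar had no listed peak in either other library, and the light part had a weaker peak in at least 1 of their full lists. Of the 711 mutant-only regions, 384 form the dark part.

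The cut at equal numbers did not equalise the scores. The lowest score kept was 179 in control 1, 163 in mutant 1 and 184 in mutant 2, but 29 in control 2, of whose kept peaks 5793 scored below 163. Control 2 thus kept peaks of lower score than the other libraries did. That it had none at any member was fixed by the rule and is not a result. Its scores may not be on the same footing as theirs, since read depth is unknown. Against the full lists, with 1782 mutant-only among 39843 regions (4.47%), the same 384 regions were mutant-only in both. They are 54.0% of the 711 and 21.5% of the 1782. These are the members without a peak in either full control list, so the overlap is not a separate result.

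Which regions were mutant-only changed with the number of peaks kept. With 20000 peaks per library there were 552, of which 250 overlapped the 711, with 15000 there were 326, of which 12 did, and with 10000 there were 182, of which 0 did. A limit higher in the lists therefore picked other regions, and with 15000 peaks 97.2% of them had a weaker control peak in the full lists. In the class sizes, mutant-only and control-only regions were both above the 4 mixed classes at each of the 6 numbers tried. At 10000 they numbered 182 and 211, against 162 to 176 in the mixed classes, and at 22959 they numbered 711 and 638, against 488 to 553. Mutant-only regions were the more numerous at 17500 (448 against 422), 20000 and 22959 peaks, and control-only regions at 15000 and below.

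**Figure D3:**
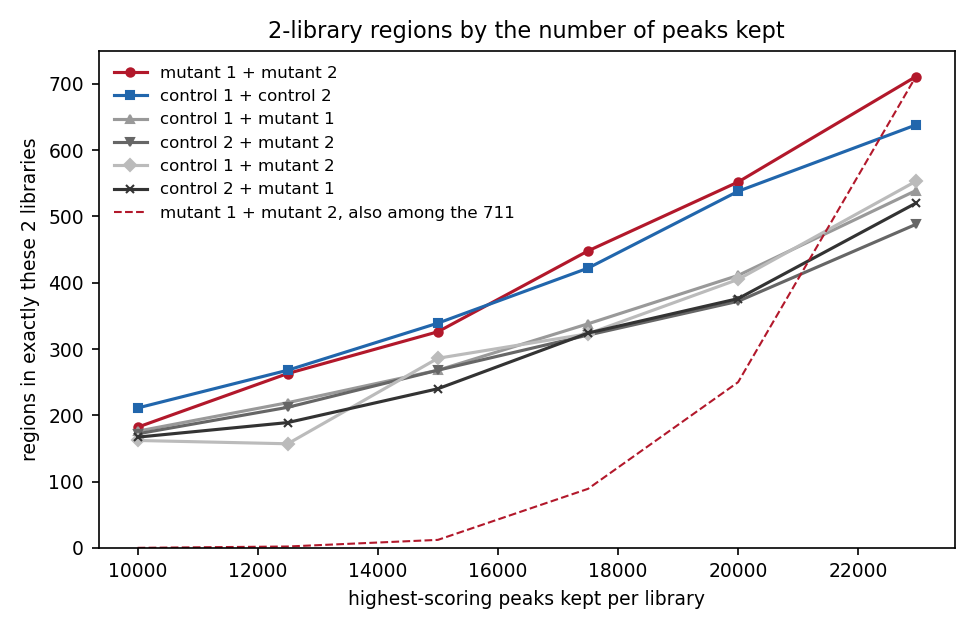
Regions kept in exactly the 2 libraries named (y axis) by the number of highest-scoring peaks kept per library (x axis); red circles are mutant-only and blue squares control-only regions, grey and black lines the 4 mixed pairs. The dashed line counts the mutant-only regions at each number that are also among the 711 and falls to 250 at 20000 peaks and 12 at 15000.

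The location of the regions was not used to choose them. Of the 711, 50 (7.03%, exact 95% binomial interval 5.26% to 9.17%) had their midpoint within 1 kb of an end of a protein-coding gene. A further 299 (42.1%) lay inside a gene, and 362 (50.9%) outside genes. In 146 (20.5%) no protein-coding gene came within 100 kb. Of the 638 control-only regions, 96 were at gene ends (interval 12.4% to 18.1%) and 12.2% were beyond 100 kb of any gene. The 4 mixed classes had 10.1% to 14.2% at gene ends and 13.9% to 17.7% beyond 100 kb, and regions of all 4 libraries 54.1% and 6.57%. Mutant-only regions were thus the class with the fewest at gene ends and the most far from genes among regions kept in 2 libraries. The share at gene ends depended on the limit and on the controls: it was 17.2% of the regions found with 15000 peaks per library, and 12.6% when control 1 was left out. Regions are not replicates of a genotype, and the difference from control-only regions was not tested. Read the other way, 0.463% of all 10805 regions at gene ends were mutant-only, against 3.49% of the 18919 others.

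**Figure D4:**
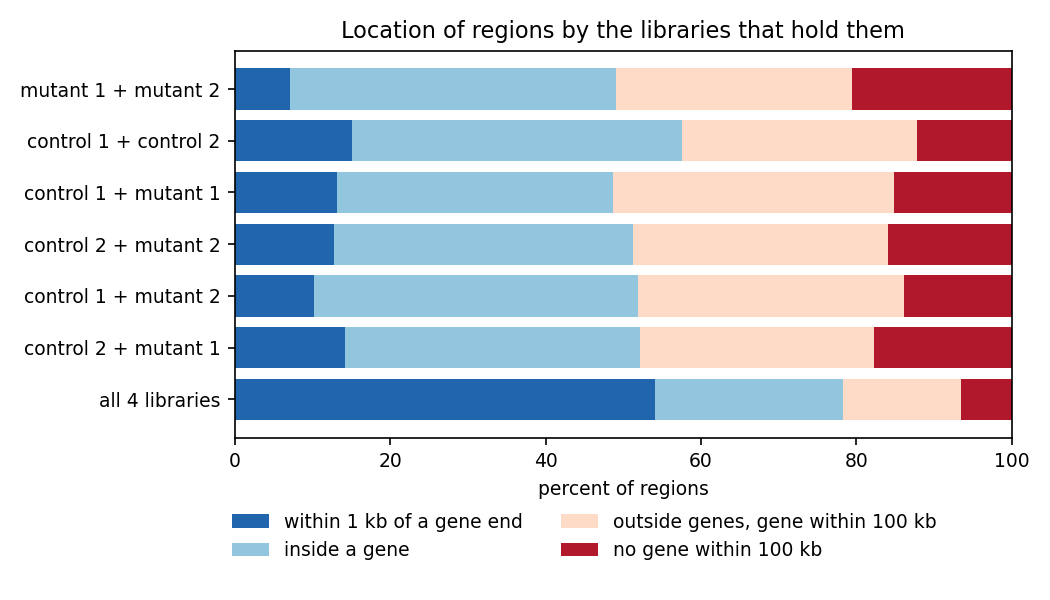
Percent of regions (x axis) in each location, for each pair of libraries and for all 4 libraries (y axis); locations are by region midpoint and protein-coding gene. The mutant 1 + mutant 2 bar has the shortest gene-end part (7.03%) and the longest part without a gene within 100 kb (20.5%).

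The same leaning could be looked at in regions kept in a single library, none of which is a member. At gene ends lay 10.2% of the 1233 regions held by control 1 alone and 11.7% of the 1939 of control 2. In mutant 1 it was 7.43% of 1306 and in mutant 2 6.73% of 1249. Regions with no gene within 100 kb made up 11.6% (control 1) and 15.4% (control 2), against 19.4% (mutant 1) and 21.2% (mutant 2). Both mutants lay on the same side of both controls in each measure, by -3.89 and 6.85 percentage points in the means (mutant minus control). Over all kept peaks, members included, the gene-end shares were 44.2% and 44.3% for controls against 43.7% for each mutant. For these shares and those beyond 100 kb, 4 measures in all, an exact two-sided permutation test gave p = 0.333, raw and Benjamini-Hochberg adjusted. This is the smallest value that 2 against 2 libraries allow, so the test could not decide whether the groups differ. This comparison was added after the values of the 2-library classes had been seen.

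Regions far from genes were spread over all 20 chromosomes, with 17 of the 146 on chromosome 13, 12 on chromosome 4 and 11 on chromosome 3. Their median distance to a protein-coding gene was 239 kb, and 25 lay more than 500 kb away. A weaker control 1 peak lay under 63 (43.2%). The strongest, 173 kb from Arhgef28 (chromosome 13, 97725011 to 97725861), ranked 14306 and 13311 in the mutants and 24457 in control 1. Another was 986 kb from Hace1 (chromosome 10, 46697351 to 46698397), at 14186 and 14971 in the mutants and 24574 in control 1. One 559 kb from Map3k7 (chromosome 4, 31404231 to 31405612) ranked 14082 and 15217 and had no listed control peak. Mutant-only regions as a whole lay a median of 47.1 kb from the nearest region of all 4 libraries, against 37.4 kb for control-only regions and 36.8 to 47.9 kb for the mixed classes. They were scattered rather than packed. Of neighbouring members, 2 pairs lay within 12.5 kb, 14 within 50 kb and 25 within 100 kb.

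The share of regions that were mutant-only ran from 1.30% on chromosome 7 and 1.36% on chromosome 19 to 3.63% on chromosome 13. Chromosome 3, which carries Shox2, had 57 of 1875 (3.04%). Within 10 Mb of Shox2, 10 of 193 regions were mutant-only (5.18%) and 8 control-only. Shox2 itself (chromosome 3, 66971723 to 66981771) had 3 assigned regions and 0 were mutant-only. The nearest member lay 1.04 Mb away, at 65929252 to 65930772. Nkx2-5 had 0 members as well, and its 1 assigned region held a kept peak in all 4 libraries. Of all regions with a gene within 100 kb, 2.13% were mutant-only. A count of 0 among so few regions shows nothing particular to either gene.

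The strongest members were mostly single regions inside or near genes of varied function. At Igsf10, which encodes an immunoglobulin superfamily protein, a region 16.0 kb from the gene (chromosome 3, 59359997 to 59360799) ranked 10284 and 11500 in mutants 1 and 2, with fold enrichments of 8.59 and 8.45. A second region inside the gene (59337614 to 59338288) ranked 13643 and 20650. Neither had a listed control peak. The highest fold enrichments of any member, 10.6 and 13.1, were at a region 38.7 kb from LOC115488002 (chromosome 12, 18609743 to 18610797), whose ranks were 11620 and 9239. It lay 617 kb from the nearest region of all 4 libraries.

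Inside Prex2, a Rac exchange factor gene, a region (chromosome 1, 11033186 to 11033971) ranked 9159 and 12570. Inside G3bp2, a stress granule gene, a region (chromosome 5, 92128457 to 92129273) ranked 12954 and 11018, with summits 1 bp apart. Both lacked a listed control peak. Inside Hspbap1 a region (chromosome 16, 35817055 to 35817794) ranked 12856 and 12793 in the mutants and had a control 1 peak at 25444, with fold enrichments of 8.31 and 8.99 against 5.81. The highest-ranked members thus included regions with and without a weaker control peak.

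Others among the 15 strongest also came without a listed control peak. They lay inside Il1rapl2, a gene of the interleukin-1 receptor family on the X chromosome (137897169 to 137897951, ranks 14344 and 14248), and inside Cytip (chromosome 2, 58134908 to 58135683, 14979 and 14268). Phf21b held one at chromosome 15, 84853353 to 84854193, with ranks 15188 and 12309 and both summits on the same base. A further one was 17.5 kb from Aff1, a gene of the transcription elongation machinery (chromosome 5, 103674383 to 103675254, 14025 and 14798). Inside Vit, which encodes the matrix protein vitrin, a region (chromosome 17, 78521224 to 78521960) ranked 15194 and 14984 in the mutants and 26837 in control 1. Of the 15 strongest, 4 had a weaker control 1 peak and 11 had none.

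At gene ends the strongest members were at Olfr658, an olfactory receptor gene (chromosome 7, 104646825 to 104647605), with ranks of 13317 and 12365, and at Scarf2, a scavenger receptor gene (chromosome 16, 17807057 to 17807909), with 14868 and 15158. Next came the start of Lrrc4c, a netrin-G ligand gene (chromosome 2, 96317542 to 96318960), with 14981 and 15767. None of these had a listed control peak. At the start of Mst1r, a receptor tyrosine kinase gene (chromosome 9, 107906467 to 107907146), the ranks were 15802 and 14445 in the mutants and 23833 in control 1. The end of Ppfia2, a synaptic scaffold gene (chromosome 10, 106932475 to 106933162), ranked 14441 and 16153. Cltb, a clathrin light chain gene (chromosome 13, 54610799 to 54611709), ranked 15074 and 17071 in the mutants and 23871 in control 1. Fam81a (chromosome 9, 70140944 to 70142324) ranked 16179 and 16991, and control 1 had a peak there at 27190. Cadm3, a cell adhesion gene (chromosome 1, 173366054 to 173368264), ranked 17190 and 15444, with control 1 at 25509. Of the 50 members at gene ends, 21 had a weaker control 1 peak (42.0%), close to the 45.2% inside genes and 47.2% outside them.

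The 565 members within 100 kb of a gene were assigned to 529 genes, of which 496 had 1 member, 30 had 2 and 3 had 3. Genes with 2 or more were long, with a median of 340 kb, against 94.0 kb for all 529 and 26.8 kb for all 13853 genes with any region. A long gene offers more room for regions of any class. Among members inside a gene, 46.8% lay in genes over 200 kb, against 39.1% for control-only regions, 39.3% to 45.2% in the mixed classes and 31.7% for regions of all 4 libraries. Of the 529 genes, 403 also had a region of all 4 libraries and 39 a control-only region.

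The 3 genes with 3 members were Nalcn, Rad51b and Frmd4a. Nalcn encodes a sodium leak channel. Its members (chromosome 14) at 123530893 to 123531807, 123587407 to 123587999 and 123622846 to 123623486 ranked 17894, 19653 and 22080 in mutant 1 and 20019, 15632 and 22020 in mutant 2. The middle one had no listed control peak, and the others had control 1 peaks at 24245 and 23658. Of the 8 regions assigned to Nalcn, 4 were in all libraries and 0 were control-only.

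Rad51b takes part in recombination repair. Its members lay inside the gene (chromosome 12, 79441547 to 79442471 and 79506954 to 79507711) and 42.8 kb outside it (79890767 to 79891339). They ranked 22540, 19477 and 13779 in mutant 1 and 18496, 22817 and 17566 in mutant 2. Only the first had a control 1 peak, at 25664, and among the 14 regions of the gene 1 was control-only. Frmd4a, a cell polarity scaffold gene, had members at chromosome 2, 4221897 to 4222684, 4412972 to 4413966 and 4559358 to 4560074. Mutant 1 ranked them 18154, 16798 and 20435 and mutant 2 17650, 16959 and 20959, and the outer ones had control 1 peaks at 23676 and 24619. With 17 regions at Frmd4a, 9 of them in all libraries, its 3 members stood among many shared ones.

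Gene lists of palate development, signalling and other cell types were read against the share of all regions that were mutant-only. Of 26563 regions with a gene within 100 kb, 565 were mutant-only (2.13%), and away from gene ends 515 of 15758 (3.27%). The 425 genes of 21 lists had 1398 regions, of which 51 were mutant-only (3.65%), and 46 of 1119 away from gene ends (4.11%). The lists thus lay above the background by less when only regions away from gene ends were counted. No list was tested, since members and lists were chosen with earlier results known.

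**Figure D5:**
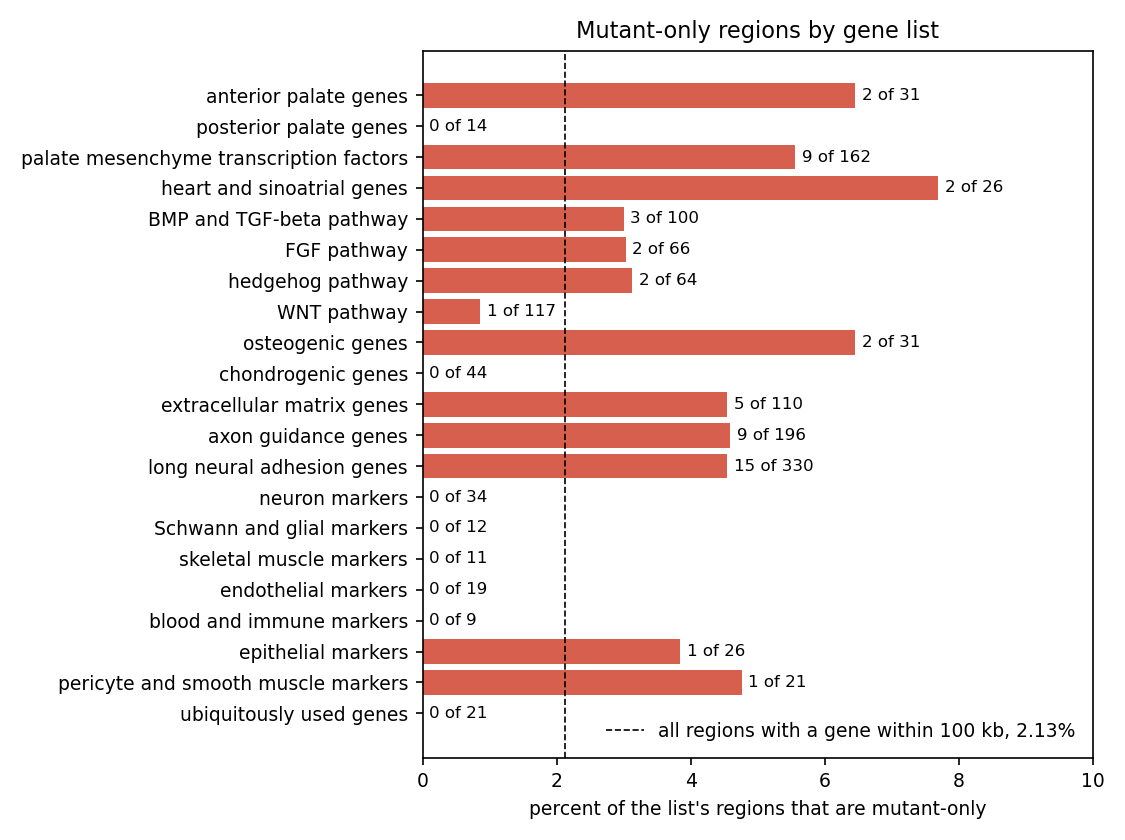
Percent of each list's assigned regions that were mutant-only (x axis) for 21 gene lists (y axis), with the counts beside each bar; the dashed line is the share over all 26563 regions with a gene within 100 kb, 2.13%. Bars resting on 1 or 2 regions are set by those regions, and 8 lists have none. The share over regions away from gene ends is higher, 3.27%, and is not drawn.

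Among 50 transcription factors of palate mesenchyme, 9 of 162 regions were mutant-only (5.56%) and 7 control-only (4.32%), at 8 genes. Away from gene ends 8 of 133 were mutant-only (6.02%), against 3.27% of all such regions with a gene within 100 kb. A region with no listed control peak lay inside Nfib, a nuclear factor I gene (chromosome 4, 82392253 to 82393041, ranks 16734 and 15424 in mutants 1 and 2). Another was 6.85 kb from Ebf1 (chromosome 11, 44610765 to 44611742, 21046 and 14822). At Nfia there were 2, one 2.37 kb outside the gene (chromosome 4, 97575372 to 97576017, ranks 17294 and 11784, control 1 at 23579) and one inside (97745535 to 97746285, 17439 and 20731, control 1 at 25036). Prrx1, a homeobox gene of craniofacial mesenchyme, had its start in a member (chromosome 1, 163313134 to 163315212), ranked 17459 and 21203 and 24219 in control 1. Tbx15, Nr2f1 and Zeb1 had 1 each, all with a weaker control 1 peak. At Nr2f1 (chromosome 13, 78202962 to 78204206) that peak ranked 23007 against 17749 and 22450 in the mutants, the closest of all to the limit.

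Anterior palate genes had 2 of 31 regions mutant-only and 2 control-only. A mutant-only one lay 92.1 kb from Spry2, a feedback inhibitor of FGF signalling (chromosome 14, 105799375 to 105800378), with ranks of 19575 and 16618 in the mutants and 24244 in control 1. Posterior palate genes had 0 of 14. Heart and sinoatrial genes had 2 of 26 and 1 control-only region.

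In signalling pathways the counts were small on both sides. BMP and TGF-beta genes had 3 of 100 regions mutant-only and 3 control-only. Those of the ligand gene Gdf6 (chromosome 4, 9825211 to 9826357) and of the BMP modulator gene Bmper (chromosome 9, 23204274 to 23205063) lay 18.6 and 18.4 kb outside and had no listed control peak, with ranks of 19681 and 19644 at Gdf6 and 22882 and 20670 at Bmper. Inside the ligand gene Bmp5 (chromosome 9, 75870262 to 75871274) the ranks were 15435 and 17679, and 26341 in control 1.

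Hedgehog genes had 2 of 64 mutant-only and 0 control-only, both inside Ptch1, the hedgehog receptor (chromosome 13). The one at 63525657 to 63526373 ranked 21623 and 20251 without a listed control peak, and the one at 63563103 to 63563582 ranked 21624 and 22148, with control 1 at 26063. FGF genes had 2 of 66, at Spry2 and inside the receptor gene Fgfr1 (chromosome 8, 25544624 to 25545249, ranks 17626 and 16797, control 1 at 28968). WNT genes had 1 of 117 (0.855%) and 1 control-only. The mutant-only one was the wide region over the start of Dkk2, a secreted WNT modulator (chromosome 3, 132084008 to 132086368), ranked 21092 and 22484 in the mutants and 23148 in control 1, with fold enrichments of 3.82, 3.88 and 3.85.

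Extracellular matrix genes had 5 of 110 regions mutant-only (4.55%) and 1 control-only (0.909%). Away from gene ends 4 of 83 were mutant-only (4.82%), against 3.27% of all such regions with a gene within 100 kb. Tnn, a tenascin gene, had 2, the closest pair of all members, 3.64 kb apart (chromosome 1, 160148955 to 160149734 and 160153369 to 160153991). They ranked 17949 and 18186 in mutant 1 and 21294 and 20515 in mutant 2, without a listed control peak, and they were the gene's only regions. A region 75.5 kb from Postn, which encodes periostin (chromosome 3, 54466052 to 54467027), ranked 16482 and 14020 and also had no listed control peak. Those of Col5a2 and Col6a2 had control 1 peaks at 27196 and 28036. Osteogenic genes had 2 of 31, 1 of them 21.4 kb from Col1a2, and chondrogenic genes 0 of 44.

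Axon guidance genes had 9 of 196 (4.59%) and 4 control-only, and long neural adhesion genes 15 of 330 (4.55%) and 6 control-only (1.82%). Away from gene ends the mutant-only counts were 9 of 161 (5.59%) and 14 of 297 (4.71%). The share of all such regions with a gene within 100 kb was 3.27%, and the difference was not tested. Inside Efna5, an ephrin ligand gene, a region of 1479 bp (chromosome 17, 62729599 to 62731077) ranked 12438 and 13203 without a listed control peak, and another (62613998 to 62615003) ranked 21639 and 19196 with control 1 at 26515. Inside Robo2, a Slit receptor gene (chromosome 16, 74671304 to 74671945), the ranks were 13141 and 18431, and inside Plxna4, a semaphorin receptor gene (chromosome 6, 32179512 to 32180350), 18238 and 18766. Neither had a listed control peak, and neither did a region 98.2 kb from Ephb3. Members at Sema3a, Sema6d, Nrp2 and Ntng1 had control 1 peaks ranked 23359 to 26093.

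Of the long neural adhesion genes, Lrrc4c, Tenm3, Tenm4 and Csmd3 were among those with 2 members each. A second region of Lrrc4c, inside the gene (chromosome 2, 97198280 to 97198970), ranked 12607 and 16775. Negr1 (chromosome 3, 156992132 to 156992952) ranked 13751 and 18379, and neither had a listed control peak. At the teneurin genes Tenm3 and Tenm4 the members lay beside 11 and 9 regions of all 4 libraries, so these genes were not open in mutants alone.

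Peak lists do not measure cell composition, and the lists of markers of other cell types were short. At the 2.13% of all regions with a gene within 100 kb, counts of 0 or 1 in lists of this size are near the background and show nothing particular to them. Neuron, Schwann and glial, skeletal muscle, endothelial, and blood and immune markers had 0 of 34, 12, 11, 19 and 9 regions. Epithelial markers had 1 of 26, inside Trp63 (chromosome 16, 25779867 to 25780684, ranks 18836 and 21658, no listed control peak). Pericyte and smooth muscle markers had 1 of 21, at the end of Tagln (chromosome 9, 45935738 to 45936350, 20559 and 21713, control 1 at 23073). As a check of the sorted cells, a region of all 4 libraries lay at a gene end of 19 of the 50 palate mesenchyme factors and 10 of the 15 ubiquitously used genes. It did so at 2 of 16 skeletal muscle, 1 of 12 endothelial, 2 of 12 blood and immune, 4 of 14 epithelial and 3 of 10 Schwann and glial markers. The counts were 8 of 15 for neuron markers and 5 of 12 for pericyte and smooth muscle markers, larger shares than that of the palate mesenchyme factors. Open gene ends thus did not set the labelled cell type apart from all others. The part of other cell types in the mutant-only regions was not tested.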

How the data were processed

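The data were 4 ATAC-seq peak lists, 1 per library, with coordinates in mm10 (build per the submitters' processing notes). The aligner, any transposase offset and the peak caller were not given in the sources used here. Lists carry no read counts, so the depth behind a peak is unknown. The score, fold enrichment, −log10 p-value and −log10 q-value of each peak were deposited by the authors and belong to single peaks. They were read from their place in the 10-column layout and used to rank or describe peaks within a list.

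Python 3.11.15 with pandas 2.3.3 and scipy 1.17.1 was used. Peaks were ranked by score, ties by file order, and the 22959 highest per library were merged at 1 shared bp. Regions were placed by their midpoint against 21631 protein-coding genes of RefSeq GRCm38.p6, the build of mm10, and assigned to the nearest within 100 kb. Promoter letters come from RefSeq GRCm38.p6. The scripts were tested on simulated lists. Members and gene lists were chosen with earlier results of these data known. Named regions are the 15 strongest by weaker mutant rank, the 10 strongest without a listed control peak, genes with at least 3 members, up to 8 at gene ends, list genes (up to 4 in full per list) and 3 on either side of the limit, besides Shox2 and Nkx2-5. Other region sequences were not used here. Some named regions are not reported here.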

Additional observations from a re-analysis of the deposited data

How the results depend on the processing

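Regions kept their number (710 to 713) under ranking by −log10 q or −log10 p (the last added after seeing the data), reversed ties and 100 bp of shared sequence, and numbered 742 with summit windows and 638 without chromosomes 3 and X. With 15000 peaks per library there were 326 regions, 17.2% at gene ends, 97.2% with a weaker control peak, a median fold enrichment of 7.36 and 22 at list genes. With 20000 peaks, 9.96% lay at gene ends, 75.7% had a weaker control peak and the median fold was 6.75. At both numbers the list of control 2 also went on beyond the limit, unlike at 22959. The shares with a weaker control peak thus came from longer searched lists. With all listed peaks there were 1782 regions, a median fold of 5.43, a median summit distance of 58 bp and 98 at list genes. Ranked by fold enrichment, there were 954 regions, of which 4.93% lay at gene ends and 26.5% had a weaker control peak. Asking for no peak in the full control lists left 384 regions and 23 at list genes. Leaving out 1 library means fewer libraries must agree: regions then numbered 1341 (without control 2) to 2035 (without control 1), and 1962 and 2021 without mutants 1 and 2. Their share at gene ends ran from 6.73% to 12.6%, with a weaker control peak from 0 (without control 1) to 50.5%, their median fold from 5.97 to 6.42, and those at list genes from 91 to 142. Of 79 named regions, 12 stayed mutant-only with 15000 peaks, 50 with 20000, 41 ranked by fold, and 38 with no listed control peak. Peak numbers in the report other than 15000, 20000 and 22959 were also added after seeing the data. Causes were not tested. No paired analysis was possible because the counts come from no fitted test and replicate numbers name libraries only.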
